A study of Rattus norvegicus with 9 samples.

Results

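GABA is the main inhibitory transmitter of the cortex, and 7 genes that make it, package it, take it up, degrade it or sense it through GABA-B receptors were followed in the prefrontal cortex of adult rats. The genes were Gad1, Gad2, Slc32a1, Slc6a11, Abat, Gabbr1 and Gabbr2. They were chosen by name for their roles, with earlier results of these data known. They were matched by symbol to the deposited table, which lists 37209 genes. All 7 were present, and all 7 were among the 16837 genes that passed the filter on low counts and were tested.

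The RNA came from the frontal cortex of 9 male Wistar rats aged 14 weeks, 3 in each group. Control rats (A1, A2 and A6) were left with their mothers until weaning. MS rats (B3, B4 and B6) were subjected to maternal separation for 4 h per day from postnatal day (PND) 1 to PND 21, and MS+EA rats (C3, C10 and C16) underwent the same separation and then electroacupuncture at GV20 and GV29 every other day from PND 61 to PND 81. According to the study's methods, Control and MS rats were anaesthetized as well, so that the groups shared the anaesthesia. No sham-acupuncture rats were sequenced, so the needles and the current cannot be told apart. Each sample was from a different rat, but the sources used here do not say which rats shared a litter or a cage, and p-values measure only the spread between these rats.

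In GABA neurons, the glutamate decarboxylases encoded by Gad1 (GAD67) and Gad2 (GAD65) convert glutamate into GABA. The vesicular transporter encoded by Slc32a1 (VGAT) loads GABA into synaptic vesicles. After release, GABA is cleared by transporters of the plasma membrane, among them GAT-3, encoded by Slc6a11 and found in the cortex mainly on astrocytes, and is broken down by GABA transaminase, encoded by Abat. Gabbr1 and Gabbr2 encode the subunits of the GABA-B receptor. GABBR1 binds GABA and GABBR2 couples to G proteins, and both subunits are required for a working receptor at the cell surface.

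The stretches just before the start of each gene are shown because Gad1 and Gad2, and Gabbr1 and Gabbr2, are pairs of genes whose products work together and whose levels are compared below. RefSeq promoter windows of assembly GRCr8, covering 250 bases before and 50 bases after a start, were at hand for 6 of the 7 genes, Abat being the one not matched. Up to 100 bases before the outermost annotated start are printed 5′ to 3′ on the strand of the gene. Capitals mark matches on either strand to the letters TATAAA, where the basal transcription machinery can bind (the TATA box), to GGGCGG, known as the GC box, and to TGACG, which forms one side of the cyclic AMP response element (the CRE half-site). The coordinates belong to GRCr8 and not to Rnor_6.0, to which the reads were mapped.
Gad1, chr3:75777202-75777259, plus strand: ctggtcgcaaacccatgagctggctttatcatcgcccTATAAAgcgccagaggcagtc
Gad2, chr17:89671618-89671717, plus strand: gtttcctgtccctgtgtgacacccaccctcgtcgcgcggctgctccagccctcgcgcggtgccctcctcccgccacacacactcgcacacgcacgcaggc
Slc32a1, chr3:167687145-167687244, plus strand: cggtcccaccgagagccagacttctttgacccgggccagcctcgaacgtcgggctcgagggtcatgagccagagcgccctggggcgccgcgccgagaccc
Slc6a11, chr4:148853457-148853556, plus strand: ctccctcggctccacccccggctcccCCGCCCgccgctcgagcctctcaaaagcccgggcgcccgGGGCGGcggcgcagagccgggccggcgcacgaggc
Gabbr1, chr20:1499353-1499452, minus strand: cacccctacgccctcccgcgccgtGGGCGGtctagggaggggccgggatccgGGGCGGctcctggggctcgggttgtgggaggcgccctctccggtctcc
Gabbr2, chr5:66083696-66083795, minus strand: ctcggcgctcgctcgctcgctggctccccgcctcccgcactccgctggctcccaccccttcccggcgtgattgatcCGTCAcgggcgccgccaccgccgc

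The whole 300-base windows of the 6 genes were rich in G and C, between 63.67% for Gad2 and 78.67% for Gabbr2, against a median of 51.67% over all 33469 windows. They held between 26 CpG dinucleotides for Gad1 and 47 for Gabbr2, against a median of 7. A GC box was found in 5 of the 6 windows and in 33.06% of all windows, a CRE half-site in 2 of the 6 (Slc32a1 and Gabbr2) and in 21.2% of all, and TATAAA in 1 of the 6 (Gad1) and in 14.22% of all. These are matches of letters and not measured binding sites. Gad1 and Gad2 therefore differed in the TATA box and the GC box, which only the window of Gad1 held, and Gabbr1 and Gabbr2 both held a GC box.

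Total counts per rat lay between 16153292 and 19007907 in the Control group, between 16106381 and 17243320 in the MS group and between 12479905 and 14913736 in the MS+EA group, so that every MS+EA library was shallower than every other one. Non-coding RNA took 1.62% to 1.85% of the counts in Control and MS rats and 1.90% to 2.13% in MS+EA rats. The library of MS rat B4 stood apart. The summed level of 7 meningeal fibroblast markers was 359 CPM (read counts scaled to a common library size) in B4, against 33.3 to 42.6 CPM in Control rats, 46.0 and 83.8 CPM in the other MS rats and 46.0 to 178 CPM in MS+EA rats, and of the 7 only Ogn was at 0 in any rat, in A1 and A2. B4 also held the highest levels of the hypothalamic peptide genes Oxt and Avp, at 16.1 and 31.5 CPM, against at most 1.34 and 1.57 CPM elsewhere. The excitatory cortical neuron markers Slc17a7 and Camk2a were abundant in every rat, Slc17a7 at 1225 to 1635 CPM. Which region was dissected was not tested with them. Of the interneuron markers Npy and Chodl were almost absent, with 2 to 13 and 3 to 16 reads per rat, whereas Cck was at 218 to 318 CPM. The summed level of 12 striatal markers was between 333 and 400 CPM, with Isl1 at 0 in all 9 rats.

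Levels are CPM on library sizes normalized by TMM. They are not divided by gene length, so they compare rats for 1 gene and not genes with each other. All values below are from bulk tissue, in which fewer cells of a type and less RNA per cell cannot be told apart. A gene was called when edgeR's quasi-likelihood test gave an adjusted p under 0.05 and the fold change exceeded 1.5. None of the 7 genes was called in any of the 3 comparisons, nor by DESeq2 or limma. The clearest differences were lower levels of both GABA-B receptor subunits, Slc32a1 and Slc6a11 in MS+EA rats, which were at an unadjusted p under 0.05 against both other groups and did not pass the adjustment over all genes.

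**Figure D1:**
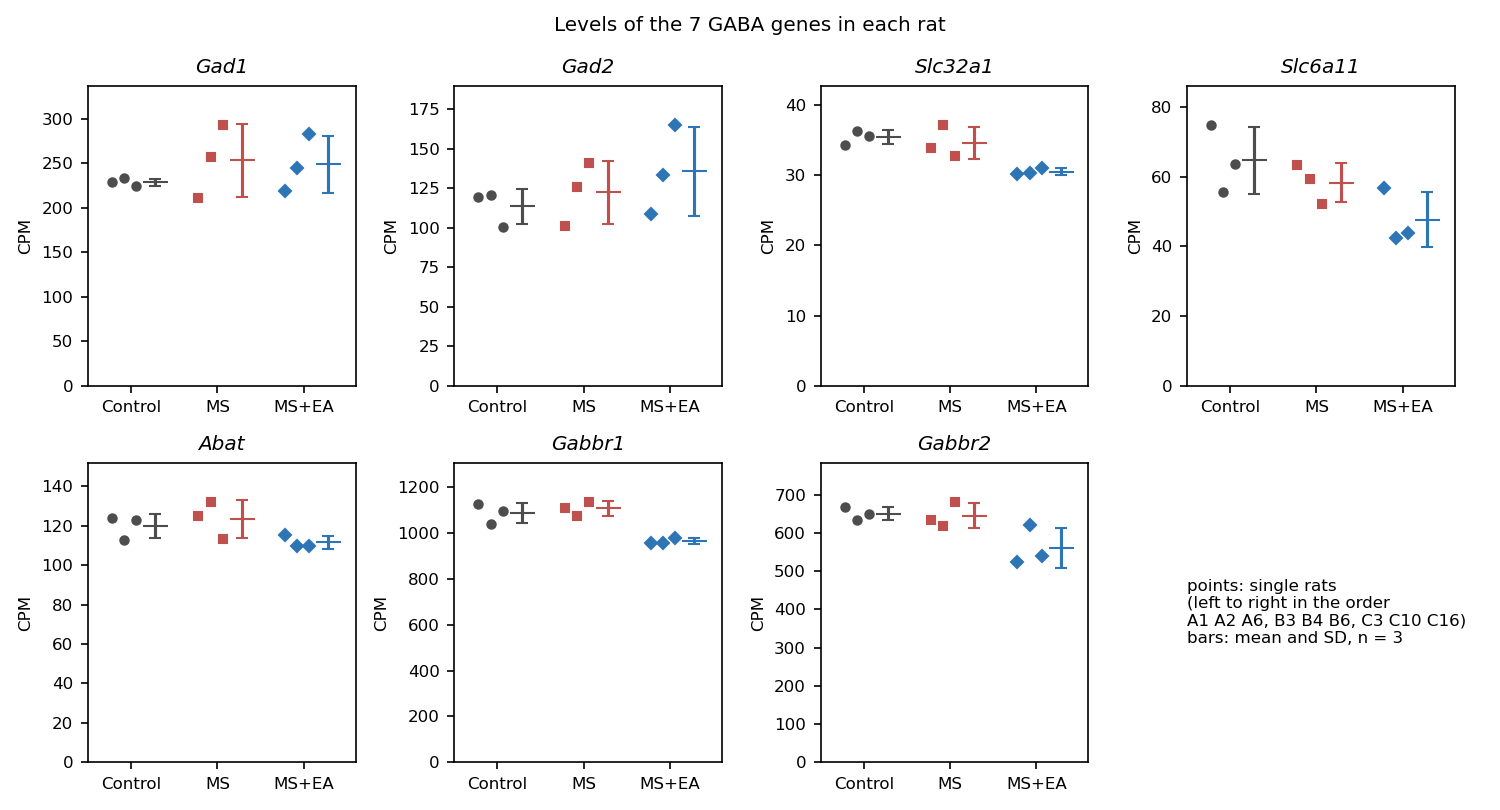
CPM of each of the 7 genes (vertical axes, from 0) in the 3 Control, 3 MS and 3 MS+EA rats, with a point per rat and the mean and SD of each group beside them. For Gabbr1 and Slc32a1 the 3 MS+EA points lie below all points of both other groups, whereas for Gad1 and Gad2 the groups overlap and the MS and MS+EA rats are spread more widely than the Control rats.

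The mRNA of the GABA synthesis genes Gad1 and Gad2 showed no detectable difference between the groups. Gad1 was at 229, 233 and 225 CPM in Control rats A1, A2 and A6, at 211, 257 and 293 CPM in MS rats B3, B4 and B6, and at 219, 245 and 283 CPM in MS+EA rats C3, C10 and C16. The Control rats were close together and lay inside the range of both other groups. The mean was 229 ± 3.96 CPM (SD, n = 3) in Control, 254 ± 41.1 in MS and 249 ± 32.3 in MS+EA rats. The SD was 1.73% of the mean in Control rats, near the 1.60% that counting error alone gives at this depth, and 16.2% and 12.9% of the mean in MS and MS+EA rats, where counting error alone gives 1.54% and 1.70%. These spreads rest on 3 rats each, and their difference was not tested.

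Gad2 was at 119, 121 and 101 CPM in the Control rats, at 101, 126 and 141 CPM in the MS rats and at 109, 133 and 165 CPM in the MS+EA rats. MS+EA rat C16 was the highest of all 9 rats, and the groups overlapped. The means were 114 ± 11.3 CPM in Control, 123 ± 20.02 in MS and 136 ± 28.2 in MS+EA rats (SD, n = 3). The log2 fold change of Gad2 was 0.11 (95% interval -0.20 to 0.42) between MS and Control rats, 0.15 (-0.17 to 0.46) between MS+EA and MS rats and 0.26 (-0.06 to 0.57) between MS+EA and Control rats. That of Gad1 was 0.15 (-0.10 to 0.39), -0.03 (-0.27 to 0.22) and 0.12 (-0.12 to 0.36) in the same order. The adjusted p by edgeR's quasi-likelihood test was between 0.323 and 0.949 for both genes in the 3 comparisons. The intervals of Gad1 leave room for a level up to 31.0% higher in MS than in Control rats, so a moderate difference was not detectable with 3 rats per group.

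Gad1 and Gad2 moved together from rat to rat. Pearson's r of their log2 CPM over the 9 rats was 0.89 (exact permutation p = 0.000929, adjusted p = 0.0195 over the 21 pairs of the 7 genes), and Spearman's rho was 0.92 (exact permutation p = 0.00131, adjusted p = 0.0275). Without B6 and C16, the rats farthest from the median of Gad1, r was 0.83. The relation was also seen inside the groups, where r of the deviations from the group means was 0.93. The ratio of Gad2 to Gad1 was between 0.446 and 0.521 in Control rats, between 0.479 and 0.490 in MS rats and between 0.495 and 0.582 in MS+EA rats. The 3 MS+EA rats were above all MS rats in this ratio but overlapped with the Control rats.

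The mRNA of the vesicular transporter was at its lowest in the MS+EA rats. Slc32a1 was at 34.3, 36.2 and 35.6 CPM in the Control rats, at 33.9, 37.1 and 32.6 CPM in the MS rats and at 30.1, 30.2 and 31.0 CPM in the MS+EA rats. All 3 MS+EA rats were below all 6 other rats, while Control and MS rats overlapped. The means were 35.3 ± 1.002 CPM in Control, 34.5 ± 2.29 in MS and 30.4 ± 0.486 in MS+EA rats (SD, n = 3). The MS+EA rats rested on 390 to 451 reads each, and their SD of 1.60% of the mean was below the 4.85% that counting error alone gives, so their closeness is tighter than the depth would ensure. Slc32a1 was 11.9% lower in MS+EA than in MS rats (edgeR's quasi-likelihood test, log2 fold change -0.18, 95% interval -0.36 to -0.003, unadjusted p = 0.0472, adjusted p = 0.394) and 13.9% lower than in Control rats (log2 fold change -0.22, -0.39 to -0.04, unadjusted p = 0.0222, adjusted p = 0.144). Between MS and Control rats the log2 fold change was -0.03 (-0.21 to 0.14). Without B4, the MS rat with the high meningeal markers, the log2 fold change between MS+EA and MS rats was -0.12.

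Pearson's r between Slc32a1 and Gad1 over the 9 rats was -0.17 (exact permutation p = 0.658, adjusted p = 0.727 over the 21 pairs), with a rho of 0.033 (exact permutation p = 0.948, adjusted p = 0.948) and an r of 0.25 without B6 and C16. The MS+EA rats lay apart in Slc32a1, and r of the deviations of both genes from their group means was 0.015. The ratio of Slc32a1 to the sum of Gad1 and Gad2 was between 0.0984 and 0.109 in Control rats, between 0.0753 and 0.109 in MS rats and between 0.0691 and 0.0918 in MS+EA rats. The MS+EA rats were below every Control rat in this ratio and overlapped with the MS rats.

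**Figure D2:**
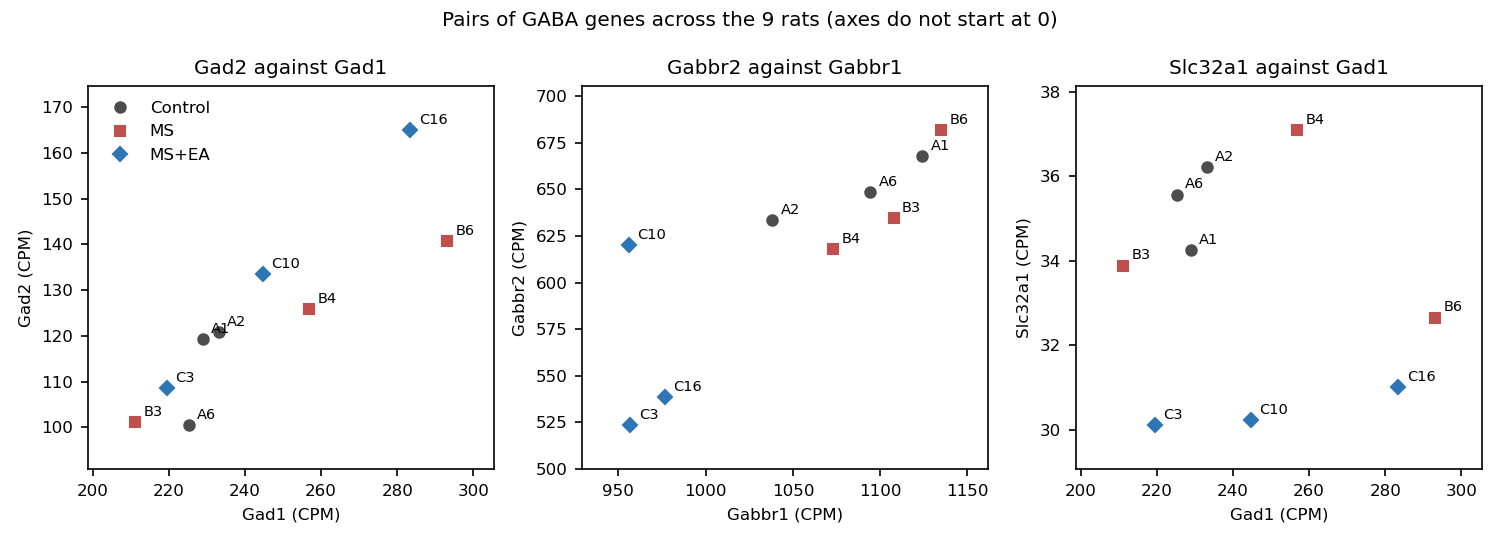
Levels of Gad2 against Gad1, Gabbr2 against Gabbr1 and Slc32a1 against Gad1, each in CPM, with a point per rat named by its label. Gad1 and Gad2 lie along a line across all groups (r = 0.89), whereas the MS+EA rats lie apart from the others in Gabbr1 and Slc32a1.

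GABA uptake by way of GAT-3 was represented by Slc6a11, which had the lowest log2 fold change of the 7 genes in each comparison. Slc6a11 was at 74.8, 55.6 and 63.7 CPM in the Control rats, at 63.3, 59.4 and 52.2 CPM in the MS rats and at 56.8, 42.4 and 43.8 CPM in the MS+EA rats. MS+EA rats C10 and C16 were below every other rat, but C3 lay within the range of both other groups. The means were 64.7 ± 9.62 CPM in Control, 58.3 ± 5.61 in MS and 47.7 ± 7.91 in MS+EA rats (SD, n = 3). The level was 26.4% lower in MS+EA than in Control rats (edgeR's quasi-likelihood test, log2 fold change -0.44, 95% interval -0.72 to -0.16, unadjusted p = 0.00501, adjusted p = 0.0664) and 18.2% lower than in MS rats (log2 fold change -0.29, -0.57 to -0.01, unadjusted p = 0.0448, adjusted p = 0.389). Between MS and Control rats the log2 fold change was -0.15 (-0.43 to 0.13).

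Slc6a11 against Control was the value nearest to the threshold, and its adjusted p was under 0.05 in some alternatives. It was 0.0144 with DESeq2, 0.00857 when every gene with a read was kept and 0.0280 when C3 was left out, with log2 fold changes of -0.45, -0.45 and -0.58 that stayed under the fold threshold of 1.5. With A1 left out, the Control rat with the highest level, the adjusted p was 0.254 and the log2 fold change -0.33.

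For the breakdown of GABA no comparison reached an unadjusted p under 0.05. Abat was at 124, 113 and 123 CPM in the Control rats, at 125, 132 and 113 CPM in the MS rats and at 115, 110 and 110 CPM in the MS+EA rats. C10 and C16 were below all other rats by a small margin and C3 was inside the range of the others. The means were 120 ± 6.17 CPM in Control, 123 ± 9.57 in MS and 112 ± 3.30 in MS+EA rats (SD, n = 3). The log2 fold change of Abat was 0.04 (-0.11 to 0.20) between MS and Control rats, -0.14 (-0.30 to 0.01) between MS+EA and MS rats and -0.10 (-0.26 to 0.06) between MS+EA and Control rats, with adjusted p values of 0.883, 0.440 and 0.442 by edgeR's quasi-likelihood test. The ratio of Abat to the sum of Gad1 and Gad2 was between 0.318 and 0.377 in Control, between 0.261 and 0.400 in MS and between 0.244 and 0.352 in MS+EA rats, and the groups overlapped.

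The GABA-B receptor subunits were the members with the smallest unadjusted p between MS+EA and MS rats. Gabbr1 was at 1124, 1038 and 1094 CPM in the Control rats, at 1108, 1073 and 1135 CPM in the MS rats and at 957, 956 and 977 CPM in the MS+EA rats. The 3 MS+EA rats were close together and below all 6 others. The means were 1086 ± 43.6 CPM in Control, 1105 ± 31.0 in MS and 963 ± 11.7 in MS+EA rats (SD, n = 3), on 12287 to 21003 reads per rat. Gabbr1 was 12.9% lower in MS+EA than in MS rats (edgeR's quasi-likelihood test, log2 fold change -0.20, 95% interval -0.33 to -0.07, unadjusted p = 0.00607, adjusted p = 0.249) and 11.3% lower than in Control rats (log2 fold change -0.17, -0.30 to -0.04, unadjusted p = 0.0137, adjusted p = 0.112). Between MS and Control rats it was 0.03 (-0.10 to 0.16).

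Gabbr2 was at 668, 633 and 648 CPM in the Control rats, at 635, 618 and 682 CPM in the MS rats and at 524, 620 and 539 CPM in the MS+EA rats. C3 and C16 were far below the rest, while C10 was just above MS rat B4 and below every Control rat. The means were 650 ± 17.2 CPM in Control, 645 ± 33.0 in MS and 561 ± 51.8 in MS+EA rats (SD, n = 3). Gabbr2 was 13.0% lower in MS+EA than in MS rats (edgeR's quasi-likelihood test, log2 fold change -0.20, 95% interval -0.36 to -0.04, unadjusted p = 0.0184, adjusted p = 0.319) and 13.7% lower than in Control rats (log2 fold change -0.21, -0.37 to -0.05, unadjusted p = 0.0138, adjusted p = 0.112). Between MS and Control rats the log2 fold change was -0.01 (-0.17 to 0.15). With DESeq2 the adjusted p was 0.0342 for Gabbr1 between MS+EA and MS rats, and 0.0224 for Gabbr1 and 0.0438 for Gabbr2 between MS+EA and Control rats, all at folds under 1.5.

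The ratio of Gabbr2 to Gabbr1 was between 0.592 and 0.610 in Control rats, between 0.573 and 0.601 in MS rats and between 0.547 and 0.649 in MS+EA rats, where C10 had the highest and C3 the lowest value of all 9 rats. Pearson's r between the subunits over the 9 rats was 0.82 (exact permutation p = 0.00400, adjusted p = 0.0420 over the 21 pairs) and rho was 0.85 (exact permutation p = 0.00607, adjusted p = 0.0638), and r was 0.93 without C3 and C10, the rats farthest from the median of Gabbr1. The MS+EA rats lay apart from the others in Gabbr1, so that this value holds the difference between the groups, and r of the deviations from the group means was 0.36. Over the 6 Control and MS rats, a choice made after seeing the data, r was 0.76 (exact permutation p = 0.0861) and rho was 0.89 (exact permutation p = 0.0333), and r was 0.86 without the 2 rats farthest from the median. A relation inside the groups was therefore weaker in r than that of Gad1 and Gad2, and the difference was not tested.

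**Figure D3:**
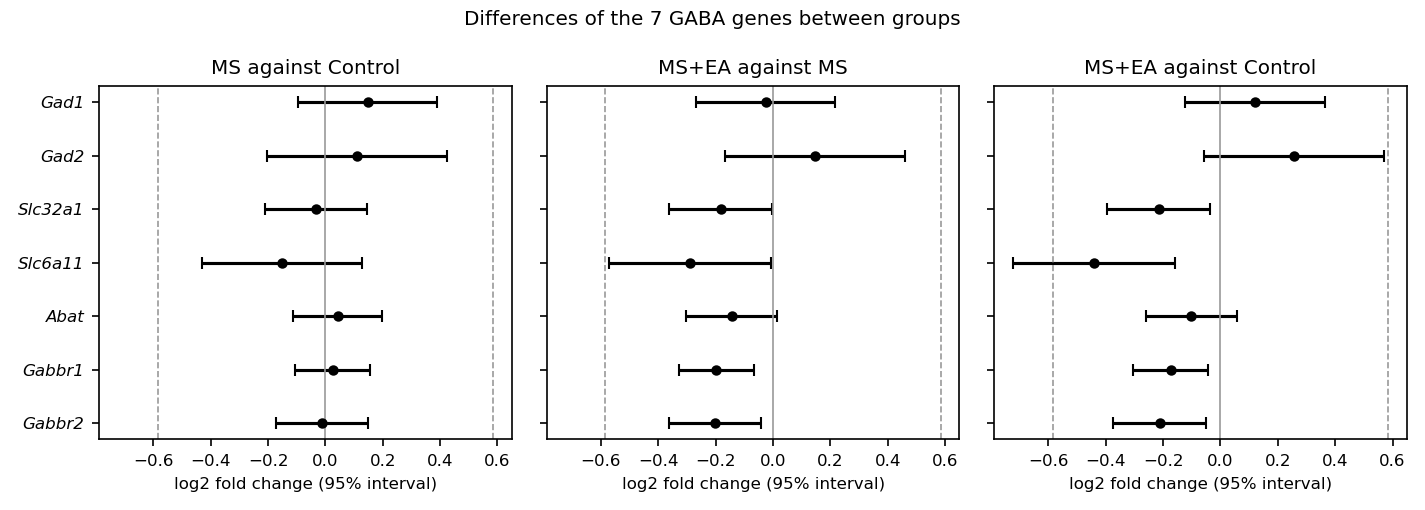
Log2 fold changes of the 7 genes with 95% intervals (horizontal axis) in the comparisons of MS with Control, MS+EA with MS and MS+EA with Control rats, with 3 rats per group. Dashed lines mark a fold change of 1.5, and the intervals of Slc32a1, Slc6a11, Gabbr1 and Gabbr2 lie below 0 in both comparisons of MS+EA rats.

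Set against all genes tested, the comparison of MS with Control rats asked what early separation left behind in adults. Of the 7 genes, 0 were called, against 0.0238% of all genes tested. At an unadjusted p under 0.05 by edgeR's quasi-likelihood test, 0 of the 7 were higher and 0 were lower, where 7.06% of all genes were higher and 3.55% lower. The groups did not overlap for 0 of the 7, against 17.6% of all genes in either direction. The median log2 fold change of the 7 was 0.03, and 4 of the 7 were above 0.

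The comparison of MS+EA with MS rats asked what electroacupuncture changed in separated rats. Of the 7 genes 0 were called, against 0.0178% of all genes tested. At an unadjusted p under 0.05 by edgeR's quasi-likelihood test, 4 of the 7 were lower, where 6.42% of all genes were lower, and 0 were higher, where 6.01% were higher. All MS+EA rats were below all MS rats in 2 of the 7, Gabbr1 and Slc32a1, against 9.6% of all genes. The median log2 fold change of the 7 was -0.18, with 6 of the 7 below 0, and that of all genes was 0.0006. The 7 genes were chosen with earlier results of these data known. These counts, like those of the other comparisons, therefore describe the 7 genes and do not test them as a group.

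Between MS+EA and Control rats 0 of the 7 were called, against 1.37% of all genes tested. The same 4 genes were lower at an unadjusted p under 0.05 by edgeR's quasi-likelihood test, where 10.6% of all genes were lower, and 0 were higher, where 11.9% were higher. All MS+EA rats were below all Control rats in 3 of the 7, Gabbr1, Gabbr2 and Slc32a1, against 12.9% of all genes. The median of the 7 was -0.17, with 5 of the 7 below 0. Both comparisons of MS+EA rats use the same 3 rats, so that the second is not independent of the first.

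**Figure D4:**
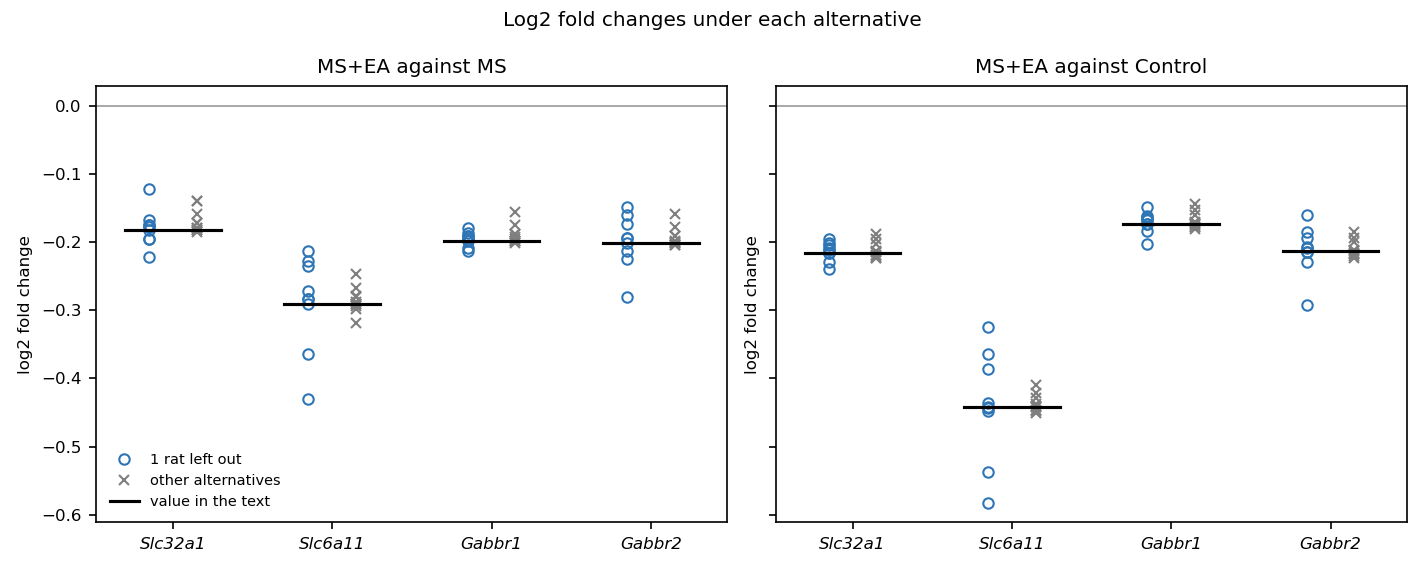
Log2 fold changes (vertical axis) of Slc32a1, Slc6a11, Gabbr1 and Gabbr2 between MS+EA and MS rats and between MS+EA and Control rats, with the value of the text as a line, fits without 1 rat as circles and other alternatives as crosses. All values lie below 0, and those of Slc6a11 spread most, between -0.58 and -0.33 against Control when 1 rat was left out.

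The other genes of GABA transport and breakdown were followed in a list of 5, which held the transporters Slc6a12 (BGT-1) and Slc6a13 (GAT-2), Aldh5a1 (succinic semialdehyde dehydrogenase, the enzyme after GABA transaminase), Akr7a2 and Aldh9a1. Between MS+EA and MS rats 0 of the 5 were called and 0 were at an unadjusted p under 0.05 by edgeR's quasi-likelihood test, and all 5 had a log2 fold change below 0. Aldh5a1 was between 207 and 225 CPM in Control, between 216 and 222 CPM in MS and between 197 and 223 CPM in MS+EA rats, with an adjusted p of 0.667 or more in all 3 comparisons. Akr7a2 and Aldh9a1 overlapped between the groups in every comparison.

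At an unadjusted p under 0.05 by edgeR's quasi-likelihood test, Slc6a12 and Slc6a13 were higher in MS than in Control rats. They were 2 of the 5 genes, where 7.06% of all genes were higher, and both were highest in a single rat. Slc6a13 was at 5.08, 2.50 and 2.42 CPM in the Control rats, at 3.79, 37.2 and 5.41 CPM in the MS rats and at 8.26, 5.29 and 7.39 CPM in the MS+EA rats. Slc6a12 was read 3, 0 and 3 times in Control, 15, 69 and 3 times in MS and 11, 8 and 10 times in MS+EA rats. In both genes the high MS value was that of B4, the rat with the high meningeal markers. Between MS and Control rats, the log2 fold change of Slc6a13 was 2.19 (adjusted p = 0.268) with B4 and 0.45 without it. The fitted value of Slc6a12 was 3.84 (adjusted p = 0.186) with B4 and 2.11 without it, on Control rats that had at most 3 reads each, and its unadjusted p stayed under 0.05 when any 1 rat was left out. Every MS+EA rat was above every Control rat in both genes, as in 2197 of the 16837 genes tested. Between MS+EA and MS rats, the log2 fold change of Slc6a13 was -1.14 with B4 and 0.61 without it, and the fitted value of Slc6a12 was -1.35 with B4 and 0.39 without it.

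GABA-B receptors act with KCTD proteins and signal through Gi/o proteins to potassium channels. Of 18 such genes, 0 were called between MS+EA and MS rats, against 0.0178% of all genes tested. At an unadjusted p under 0.05, 4 were lower and 0 higher, where 6.42% of all genes were lower and 6.01% higher. The median log2 fold change was -0.09. The 4 were Kcnj6, which encodes the channel subunit GIRK2 (log2 fold change -0.22), the G protein genes Gnai2 (-0.17) and Gnb1 (-0.15), and Rgs4, an accelerator of G protein inactivation (-0.26), with adjusted p values between 0.300 and 0.399 by edgeR's quasi-likelihood test. All MS+EA rats were below all MS rats in 3 of the 18, among them Kcnj6 and Gnb1, against 9.6% of all genes. Against Control rats, 2 of the 18 were lower (Gnai2 at -0.26 and Gnb1 at -0.16) and 2 higher (Kctd12 at 0.27 and the channel subunit gene Kcnj3 at 0.21), with 0 called. These counts are near the shares of all genes, 10.6% lower and 11.9% higher. Kctd12, which encodes an auxiliary subunit of the receptor, was between 141 and 152 CPM in Control, between 150 and 187 CPM in MS and between 169 and 180 CPM in MS+EA rats, the opposite direction to Gabbr1 and Gabbr2 (adjusted p = 0.0664 against Control).

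The supply of glutamate and glutamine, from which GABA is made, was represented by 8 genes, of which 0 were called in any comparison and 0 were at an unadjusted p under 0.05 between MS+EA and MS rats by edgeR's quasi-likelihood test. Slc38a2, a transporter of glutamine and other neutral amino acids, was between 148 and 175 CPM in Control, between 164 and 216 CPM in MS and between 158 and 253 CPM in MS+EA rats. It was the highest of the 8 in log2 fold change between MS+EA and Control rats, at 0.35 (adjusted p = 0.186), and the groups overlapped. The other 7 were below 0 in that comparison, and the median was -0.14. The lowest was Slc25a22 (-0.46, adjusted p = 0.542). Between MS and Control rats Slc25a22 was at -0.87 (adjusted p = 0.479). It was at 8.24, 2.93 and 3.67 CPM in Control rats A1, A2 and A6 and at 2.45 to 2.88 CPM in MS rats. The high Control value was that of A1 alone, with 154 reads, against 48 in A2, 59 in A6 and 42 to 47 in MS rats.

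For the ionotropic GABA-A receptors, some subunit genes were higher in MS than in Control rats before adjustment. Of 10 subunit genes, 3 were higher in MS than in Control rats at an unadjusted p under 0.05 by edgeR's quasi-likelihood test, and 0 were lower. At that threshold 7.06% of all genes were higher and 3.55% lower. The 3 were Gabra4 (log2 fold change 0.26, adjusted p = 0.324), Gabrb2 (0.36, adjusted p = 0.196) and Gabrg1 (0.36, adjusted p = 0.310). Every MS rat was above every Control rat in 4 of the 10, among them these 3, and below in 1. Of all genes, 17.6% did not overlap in either direction. In the opposite direction, Gabrg3 was lower in every MS than in every Control rat (-0.26, adjusted p = 0.578). Of the 10, 0 were called and the median was 0.05. The summed level of the 10 genes was 1361 to 1440 CPM in Control, 1507 to 1672 CPM in MS and 1409 to 1760 CPM in MS+EA rats. Between MS+EA and MS rats 0 of the 10 were at an unadjusted p under 0.05. Gabrb2 was at 401, 430 and 390 CPM in the Control rats, at 499, 512 and 558 CPM in the MS rats and at 480, 626 and 464 CPM in the MS+EA rats, so that every Control rat was below all others. Its log2 fold change between MS+EA and Control rats was 0.36 (adjusted p = 0.0576).

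Markers of the cells that make GABA were followed beside the members. At an unadjusted p under 0.05, 6.42% of all genes were lower and 6.01% higher between MS+EA and MS rats. Of 17 tested cortical interneuron markers, 2 were lower and 0 higher at that threshold, and 0 were called. They were Pvalb, which marks fast-spiking interneurons (log2 fold change -0.25, adjusted p = 0.322), and Lamp5, which is found in neurogliaform cells and, in cortex, also in excitatory neurons (-0.29, adjusted p = 0.322). Pvalb was at 39.2, 35.8 and 38.1 CPM in the Control rats, at 41.8, 36.3 and 41.4 CPM in the MS rats and at 30.04, 34.4 and 36.1 CPM in the MS+EA rats. Among 14 transcription factors of GABA neurons, Maf was the only one called in any comparison (edgeR's quasi-likelihood test, log2 fold change 0.77, adjusted p = 0.00856 between MS+EA and Control rats). In that comparison 1.37% of all genes tested were called. Of the 14 factors, 5 were above 0 in it and 9 below, with a median log2 fold change of -0.12. The lowest was Dlx2 (-0.69) and the highest Nr2f2 (0.92). Maf is also expressed outside neurons. It was at 23.4 to 28.6 CPM in Control, 36.0 to 50.7 CPM in MS and 43.0 to 46.1 CPM in MS+EA rats. Every MS and MS+EA rat was thus above every Control rat, and MS rat B4 was the highest. Between MS and Control rats the log2 fold change of Maf was 0.68 (edgeR's quasi-likelihood test, adjusted p = 0.0850).

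Excitatory cortical neuron markers were at their lowest in the MS+EA rats, as Gabbr1 and Slc32a1 were. The summed level of 11 excitatory markers was 4181 to 4855 CPM in Control, 4251 to 4302 CPM in MS and 3672 to 3792 CPM in MS+EA rats, so that all MS+EA rats were below all others. Slc17a7, the vesicular glutamate transporter gene VGLUT1, had a log2 fold change of -0.30 between MS+EA and Control rats (edgeR's quasi-likelihood test, adjusted p = 0.0207), Camk2a one of -0.36 (adjusted p = 0.0387) and Fezf2 one of -0.52 (adjusted p = 0.0363), all at folds under 1.5. In that comparison 910 of the 16837 genes tested were at an adjusted p under 0.05, in either direction. At an unadjusted p under 0.05, 10.6% of all genes were lower. The other 8 of the 11 were not at an unadjusted p under 0.05. Of the 11, 3 were above 0, and the highest was Foxp2 (0.37, adjusted p = 0.371), so that the low sum was mostly that of the abundant Slc17a7 and Camk2a. Of 12 astrocyte markers, 2 were lower between MS+EA and MS rats at an unadjusted p under 0.05, the glutamate transporter gene Slc1a2 (-0.19, adjusted p = 0.311) and Fgfr3 (-0.29, adjusted p = 0.318). Their summed level overlapped between the groups, at 5876 to 7094 CPM in Control, 6559 to 6896 CPM in MS and 5441 to 6582 CPM in MS+EA rats. Other markers were higher in MS+EA than in MS rats. All 8 oligodendrocyte markers had a log2 fold change above 0, with a median of 0.40, and 1 was at an unadjusted p under 0.05 (Mog, 0.58, adjusted p = 0.300). Their summed level was 2195 to 3356 CPM in Control, 1929 to 3009 CPM in MS and 2117 to 4354 CPM in MS+EA rats, highest in C3, and the groups overlapped. Slc17a6, the transporter gene VGLUT2 of subcortical excitatory neurons, was higher in every MS+EA than in every MS rat (0.92, adjusted p = 0.260), as was the striatal marker Drd1 (0.56, adjusted p = 0.286). Both lists held genes of either direction. Among 12 tested markers of other subcortical neurons, 4 were above 0 and 8 below. In that list 2 were higher and 2 lower in all MS+EA than in all MS rats. Its lowest was Oxt (-6.69), with at most 1 read in an MS+EA rat. Among 11 tested striatal markers, 8 were above 0 and 3 below, the lowest being Adora2a (-0.44).

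The part of these markers, of the lower depth and of the higher non-coding share of the MS+EA libraries in the values of Gabbr1, Gabbr2, Slc32a1 and Slc6a11 was not tested by matching the rats on them. In fits added after seeing the data, with all libraries thinned to the lowest total, the log2 fold changes between MS+EA and MS rats were -0.19 for Gabbr1, -0.20 for Gabbr2, -0.14 for Slc32a1 and -0.32 for Slc6a11. Over mRNA genes alone they were -0.18, -0.18, -0.16 and -0.27. Thinning kept each gene's expected share of its library, so thinned values near the main ones were largely set in advance. The part of depth was not tested by them.

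**Figure D5:**
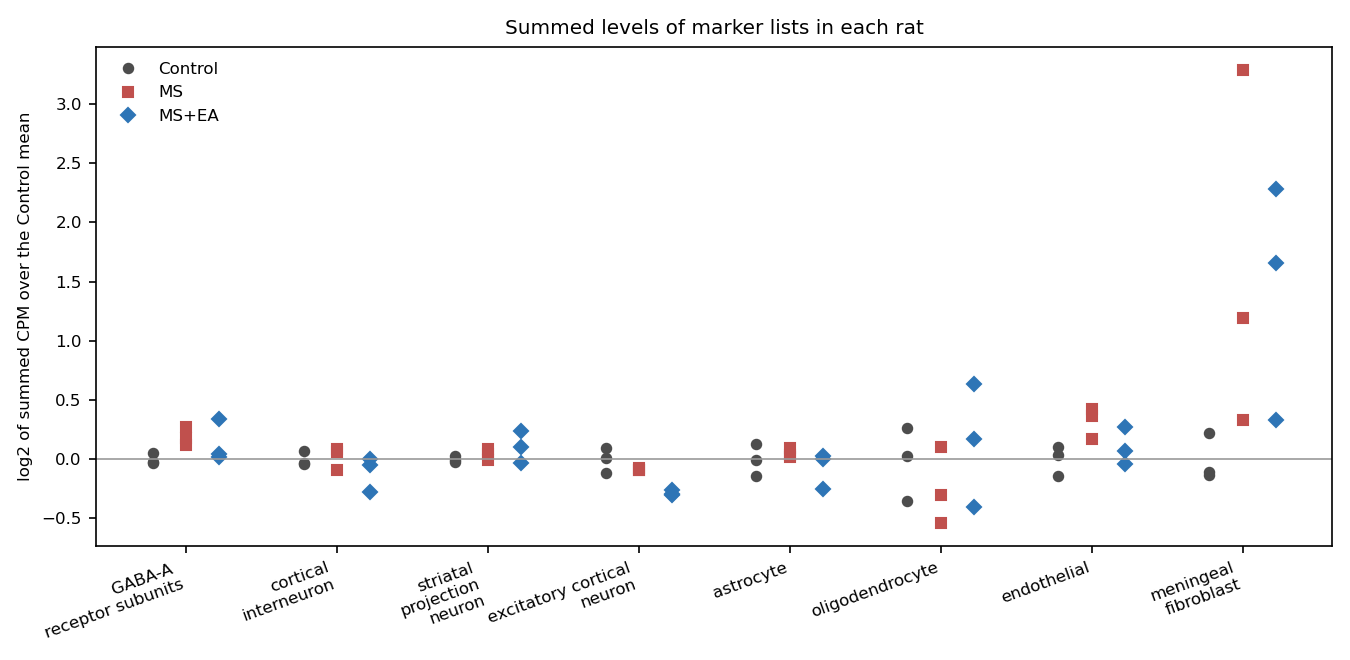
Summed CPM of 8 gene lists in each rat as log2 of the ratio to the Control mean (vertical axis), with a point per rat. The 3 MS+EA rats lie below all others for the excitatory markers, the MS rats lie above the Control rats for the GABA-A subunits, and the highest meningeal point is MS rat B4.

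The genes whose log2 CPM followed each member most closely over the 9 rats were taken from all tested genes as a description, since the highest of many correlations is high by selection and all share the same libraries. For Gad1 they were Rgmb (r = 0.97), Vdac3 (0.94) and Polr2b (0.94), and for Gad2 Hspa9 (0.99), Abracl (0.98) and H2afy2 (0.97). Slc32a1 was followed by Slc35e4 (0.98), Efr3b (0.98) and Mgat1 (0.97). Slc6a11 was followed by Mlc1 (0.98), a gene of astrocyte membranes, by the non-coding LOC102723236 (0.98) and by Ssbp4 (0.98). For Abat they were Lingo3 (0.97), Phka1 (0.94) and Gpr26 (0.94), for Gabbr1 Srgap3 (0.97), Itsn1 (0.97) and Arhgef12 (0.96), and for Gabbr2 the non-coding LOC690251 (0.98), Ap1ar (0.96) and Pex2 (0.96). No gene stood among the nearest 3 of more than 1 member, and no member was among the nearest 3 of another.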

How the data were processed

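Ribosomal RNA was removed from total RNA of the frontal cortex before sequencing (Illumina HiSeq X). The authors checked the reads (FastQC), aligned them to Rnor_6.0 using HISAT2 2.0.4 and deposited whole-number counts per gene, without normalization. The counting program, its strand setting and its treatment of reads with several locations are not given in the sources used here, so reads of genes that overlap on opposite strands may not be told apart. All per-sample columns were used (0 left out).

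Groups were taken from the labels. edgeR 4.0.16 in R 4.3.3 was used with TMM, filterByExpr at a minimum count of 10, and a quasi-likelihood F test on all 9 rats with Benjamini-Hochberg adjustment over 16837 genes. Intervals used SEs equal to |log2 fold change|/√F. Alternatives used DESeq2 1.42.0 and limma 3.58.1. Correlations used numpy 2.4.6 and exact permutations. The fit was tested on simulated data. Total counts of 12479905 to 19007907 per rat set the precision, and counting error covers sampling of reads only. The study's EBSeq was not installed, so edgeR was used with the study's thresholds.

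The 7 genes and all lists were chosen with earlier results of these data known. Named genes are the 7, the other GABA transporters and enzymes, listed genes at an unadjusted p under 0.05 or with the highest or lowest log2 fold change of a list, and the 3 genes most correlated with each of the 7. Npy, Chodl, Isl1, and the ratio and 6-rat correlation of the receptor subunits were chosen after their values were seen. Some listed genes are not reported here, and counts and sums of their lists leave them out.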

Additional observations from a re-analysis of the deposited data

How the results depend on the processing

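No member was called under any alternative. The 4 members lower between MS+EA and MS rats at an unadjusted p under 0.05 became 2 (Gabbr1 and Gabbr2) with total counts in place of TMM, with at least 10 counts in every rat, with the 6 rats compared alone and over mRNA genes, the last chosen after seeing the data, and 1 to 4 when 1 rat was left out, with 1 without C16. Against Control the 4 became 2 to 4 when 1 rat was left out, with 2 without A6 or C3. The count of higher members against Control, 0, became 1 (Gad2) with at least 1 count in all and 0 to 1 when 1 rat was left out (C3), and that between MS and Control rats became 0 to 1 (Gad1, without B3). Of the 9 fits without 1 rat, an unadjusted p under 0.05 between MS+EA and MS rats was found in 9 for Gabbr1, 6 for Gabbr2, 4 for Slc6a11 and 1 for Slc32a1, and against Control in 9 for Slc6a11, 7 each for Gabbr1 and Gabbr2 and 6 for Slc32a1.

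Some log2 fold changes changed sign when 1 rat was left out. Between MS and Control rats the log2 fold changes ranged from -0.0025 to 0.23 for Gad2, -0.088 to 0.0051 for Slc32a1, -0.010 to 0.10 for Abat, -0.011 to 0.051 for Gabbr1 and -0.054 to 0.017 for Gabbr2. Between MS+EA and MS rats they ranged from -0.14 to 0.090 for Gad1 (0.017 with total counts), -0.017 to 0.29 for Gad2, -1.88 to 0.39 for Slc6a12 and -1.61 to 0.61 for Slc6a13, the highest of the last pair without B4. Those of the last pair were large with B4. The cause was not tested.

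Over all genes, calls between MS and Control, MS+EA and MS, and MS+EA and Control rats numbered 4, 3 and 230. They were 207, 72 and 469 with at least 1 count in all, 69, 13 and 286 with DESeq2, and 5, 0 and 233 with at least 10 counts in every rat. The 230 became 71 without A1, 154 without A2, 155 without A6 and 121 without C10, with 71 to 304 over all fits without 1 rat, and the 4 became 2 to 22, with 22 without B3, and the 3 became 1 to 4. No paired analysis was possible because every group consists of different rats, whose numbers nothing pairs. Depth limited Slc32a1 most, with 390 to 640 reads per rat.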
